A study of Homo sapiens with 2 samples.

Results

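The supply of deoxynucleotides, the building blocks of DNA, was examined in 10 genes: TYMS, DUT, TK1 and DTYMK of thymidylate synthesis and salvage, RRM1 and RRM2 of ribonucleotide reductase, CAD and UMPS of pyrimidine synthesis, DCK of deoxynucleoside salvage, and the nucleoside transporter SLC29A1. All 10 were found on the arrays by gene symbol, with 26 probe sets of 54675 in all. Ca9-22 cells, a human line from a gingival squamous cell carcinoma, carried either an empty lentiviral vector or a vector for PTHLH, the parathyroid hormone-like hormone, and both kinds of cells had been through blasticidin selection. The comparison asked which transcripts differ when PTHLH is overexpressed in these cells. RNA from 1 culture of each kind was read on 1 Affymetrix U133 array each, so no difference below has a replicate check, and no p-value can be given. A free-text label of the samples names CX-1 cells and, for the second array, the gene RAB3C, against the titles and characteristics, which were followed here. The level of PTHLH itself is not analysed here, so the arrays were not checked for the vector, and every difference between PTHLH and empty vector cells rests on those labels.

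A dividing cell must make its deoxynucleotides shortly before it copies its DNA. Ribonucleotide reductase turns ribonucleotides into deoxyribonucleotides, thymidylate synthase adds the methyl group that makes thymidylate from deoxyuridylate, and salvage kinases recover nucleosides that enter through transporters. Several of these enzymes are known to be made chiefly in S phase and are targets of anticancer drugs that starve cells of DNA precursors.

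Of the 10 genes, 5 were at least 1.5-fold higher in Ca9-22-PTHLH cells than in empty vector cells, and 0 were at least 1.5-fold lower. The 5 were TYMS (2.18-fold), RRM2 (1.86-fold), RRM1 (1.73-fold), DTYMK (1.56-fold) and CAD (1.52-fold), each by its brightest probe set, the group of probes with the highest mean log2 intensity over both arrays. Among all 19775 genes, 1.97% were at least 1.5-fold higher and 3.52% at least 1.5-fold lower by the same rule. The median log2 difference, PTHLH minus empty vector, was 0.54 over the 10 genes and 0 over all genes. A log2 difference above 0 was found in 9 of the 10 genes and in 9596 of the 19775. As a scale for these differences, the SD of one log2 difference was 0.20 between the pair of brightest probe sets of a gene, over 5594 genes with both above the array medians, and this covers probes, not cultures.

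**Figure D1:**
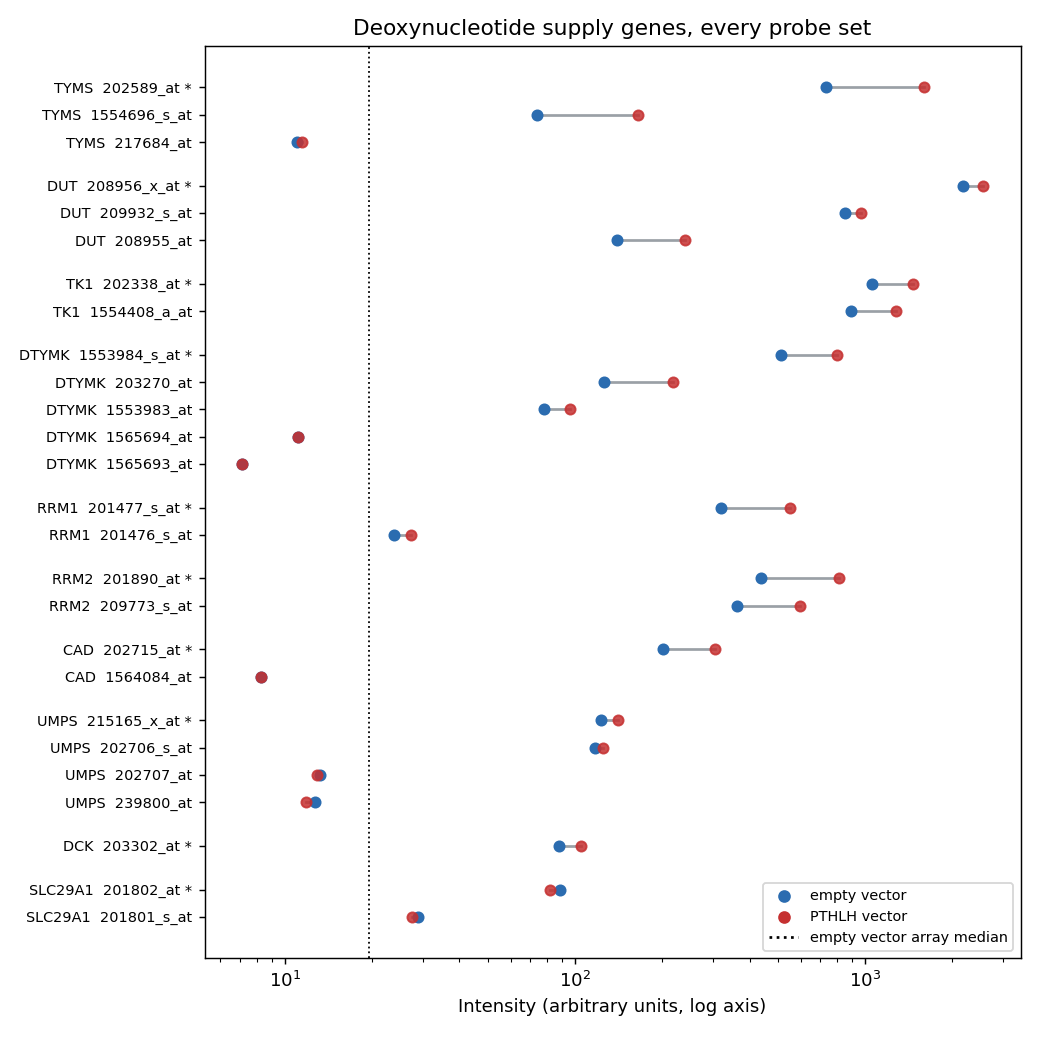
Array signal (intensity, arbitrary units, log axis) of all 26 probe sets of the 10 genes, with the empty vector array in blue, the PTHLH array in red, 1 array each, and the brightest probe set of each gene marked by an asterisk. The red points lie to the right for the bright probe sets of TYMS, RRM1 and RRM2, and left of the blue points for SLC29A1, while the 6 probe sets left of the dotted median line hardly differ.

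The promoter sequences are shown for TYMS, DTYMK and RRM2, which were at least 1.5-fold higher, for TK1, just under that line, and for DUT, whose probe sets disagreed. They are from RefSeq on the GRCh38.p14 assembly, which held 16 windows for the 10 genes, each from 250 bases before to 50 bases after an annotated start of transcription. Matches were sought on both strands to the E2F letters TTTCCCGC, TTTGGCGC, TTTCGCGC or TTTGCCGC, to the CCAAT box bound by NF-Y (CCAAT), to the GC box (GGGCGG) and to the cell cycle homology region, CHR (TTTGAA or TTCGAA). In the TYMS and DTYMK sequences, which run over the 100 bases before the start, and in the shorter DUT sequence, capitals mark the E2F letters of TYMS and DUT and the CCAAT letters of DTYMK.
TYMS, chr18:657553-657652, plus strand: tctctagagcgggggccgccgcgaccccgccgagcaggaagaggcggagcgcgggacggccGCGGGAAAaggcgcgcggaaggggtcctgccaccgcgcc
DTYMK, chr2:241686816-241686915, minus strand: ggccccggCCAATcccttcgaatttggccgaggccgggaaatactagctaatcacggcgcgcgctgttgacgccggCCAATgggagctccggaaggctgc
DUT, chr15:48332152-48332180, plus strand: ctgGCGGGAAAtttcggtTTTGGCGCgct

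RRM2 had 3 CCAAT boxes before its downstream start, all in the same orientation and each followed by gggaaggg, as the 3 stretches of 27 bases show with the box in capitals. TK1 had a pair of them before its downstream start, read on the opposite strand as ATTGG.
RRM2, chr2:10122605-10122631, plus strand: gcaaggcgcagCCAATgggaagggtcg
RRM2, chr2:10122635-10122661, plus strand: gcatggcacagCCAATgggaagggccg
RRM2, chr2:10122662-10122688, plus strand: gggcaccaaagCCAATgggaagggccg
TK1, chr17:78187114-78187140, minus strand: gccgggcgctgATTGGccccatggcgg
TK1, chr17:78187083-78187109, minus strand: gccggctcgtgATTGGccagcacgccg

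CCAAT letters were present in 6 of the 16 windows, in RRM1, RRM2, TK1, DTYMK and CAD, against 34.6% of all 35116 promoter windows, so the share in these genes was near that of all windows. E2F letters were present in 3 windows, those of TYMS, DCK and one start of DUT, against 3.31% of all windows. The GC box was in 12 windows against 45.0% of all windows, and CHR letters were in 5 against 16.4%. Windows of one gene can overlap, and a match describes the letters and not binding. Genes with E2F letters included TYMS, the gene with the largest difference, and DCK, with one of the smaller ones. Neither window of SLC29A1 held CCAAT or E2F letters, and nor did the window of UMPS, whose log2 difference was 0.20.

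**Figure D2:**
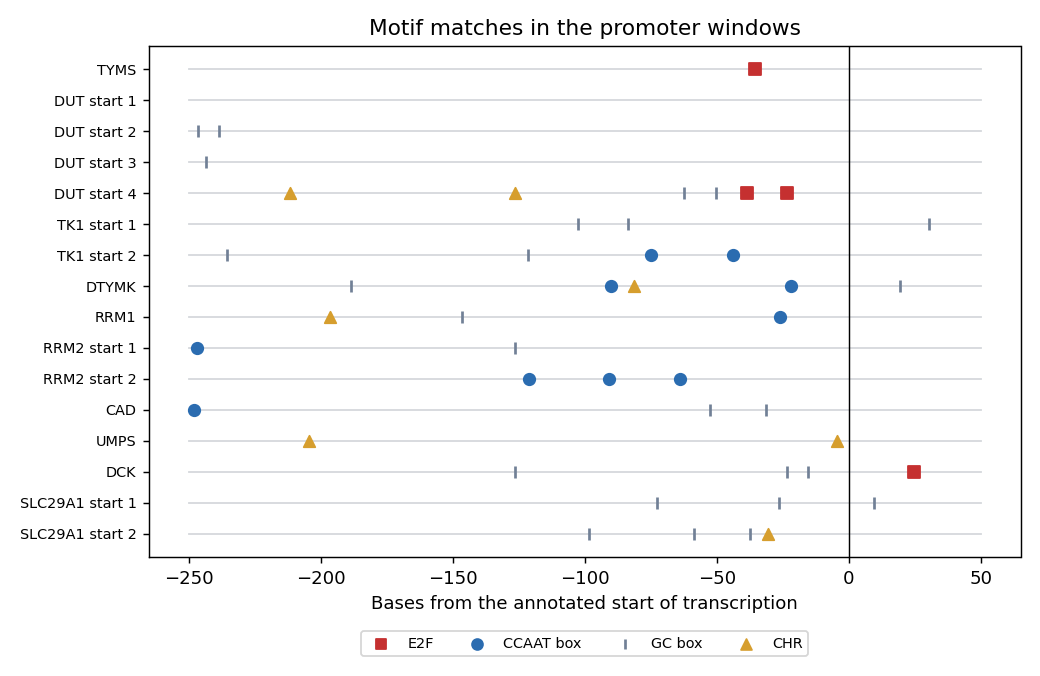
Positions of motif matches, in bases from the annotated start of transcription at 0, in the 16 promoter windows of the 10 genes, which run from 250 bases before the start to 50 after it, with 1 row per start and a marker per motif. Of the CCAAT boxes of RRM2, 3 lie in the window of its downstream start and another at -249 from its upstream start. The E2F letters of TYMS and DUT lie within 50 bases before a start.

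TYMS, thymidylate synthase and the target of fluoropyrimidine drugs, had the largest difference of the 10 genes. Its brightest probe set went from an intensity of 732 in empty vector cells to 1596 in PTHLH cells, a log2 difference of 1.12. A second probe set went from 73.8 to 165, a log2 difference of 1.16. The pair thus gave nearly the same ratio at very different signals, 2.18-fold and 2.23-fold. The third probe set, below both array medians, had 11.0 and 11.5. By its brightest probe set TYMS held rank 19 of 19775 genes, counted from the highest log2 difference. TYMSOS, a noncoding gene that overlaps TYMS and was chosen after its values were seen, went from 147 to 133, a log2 difference of -0.15.

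DTYMK, the kinase that phosphorylates thymidylate on the way to thymidine triphosphate, had 3 probe sets above both medians, and all 3 were higher in PTHLH cells. Intensity went from 515 to 801 (1.56-fold) for the brightest, from 126 to 218 (1.72-fold) for the second and from 78.1 to 96.1 (1.23-fold) for the third. The other 2 probe sets were dim, at 11.1 on both arrays and at an identical value of 7.11. With the median over all its probe sets, the log2 difference of DTYMK was 0.30.

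TK1, the thymidine kinase of the cytosol that returns thymidine to the pool, lay just under the 1.5-fold line. Its probe sets went from 1056 to 1466 (1.39-fold) and from 892 to 1274 (1.43-fold). Both gave close to the same ratio, and by the brightest TK1 stood at percentile 96.0 of all genes.

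DUT, the dUTPase that keeps uracil out of DNA and yields the substrate of TYMS, depended on the probe set. The brightest (of the x type, which can bind several transcripts) went from 2168 to 2559 (1.18-fold), and the next from 851 to 966 (1.13-fold). The dimmest went from 140 to 240 (1.71-fold). All 3 were higher in PTHLH cells and above both medians. Whether they read different DUT transcripts was not tested.

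RRM1 and RRM2 encode the large and the small subunit of ribonucleotide reductase, the small one being the subunit whose level limits the enzyme in cycling cells. RRM2 went from 436 to 812 by its brightest probe set and from 363 to 597 by the other, which were 1.86-fold and 1.64-fold higher. RRM1 went from 318 to 551, 1.73-fold higher. Its other probe set, with a dim signal near the array medians, went from 23.8 to 27.3, 1.15-fold higher. Both subunits were thus higher together by their brightest probe sets, with a median log2 difference of 0.84. RRM2B, the p53-inducible small subunit used outside S phase, had a single probe set that went from 157 to 133, a log2 difference of -0.23.

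CAD, which carries out the first steps of pyrimidine synthesis, went from 201 to 304, a log2 difference of 0.60 and just inside the 1.5-fold line. After quantile normalization it was 0.57, outside the line. A dim CAD probe set had the identical value of 8.30 on both arrays. UMPS, which completes uridine monophosphate, had 123 and 141 (1.15-fold) by its brightest probe set and 117 and 125 (1.07-fold) by the next. Its 2 dim probe sets were slightly lower in PTHLH cells, with log2 differences of -0.03 and -0.10. The UMPS difference did not exceed the SD between probe sets, unlike that of CAD.

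DCK, the kinase that activates deoxycytidine and its drug analogues, went from 88.1 to 105 by its only probe set, 1.19-fold higher and little beyond the SD between probe sets. SLC29A1, the equilibrative transporter ENT1 that carries nucleosides across the membrane, was the only one of the 10 genes below 0. It went from 88.5 to 82.0 by one probe set and from 28.8 to 27.5 by the other, log2 differences of -0.11 and -0.07. Both SLC29A1 values were smaller in size than the SD between probe sets. The salvage and uptake pair therefore had a median log2 difference of 0.07, against 0.56 for the 4 thymidylate genes.

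Among the 20 probe sets of the 10 genes above both array medians, 18 had a log2 difference above 0, 9 were at least 1.5-fold higher and 0 at least 1.5-fold lower. Up to 3 of the 20 read the same gene, so they are not separate observations. Of all probe sets with 1 gene symbol above both medians, 2.72% were at least 1.5-fold higher and 3.57% at least 1.5-fold lower. The median over the 20 was 0.49, against 0.01 over all 21971. The 6 probe sets below both medians lay between -0.10 and 0.06. TYMS, RRM2 and DTYMK were also at least 1.5-fold higher by their second brightest probe set, 3 of the 9 genes that have one, and 0 were lower, against 2.17% higher and 2.4% lower of all 10523 such genes. At a 2-fold line only TYMS of the 10 genes was left, and 0 were lower, against 0.182% higher and 0.733% lower of all genes.

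**Figure D3:**
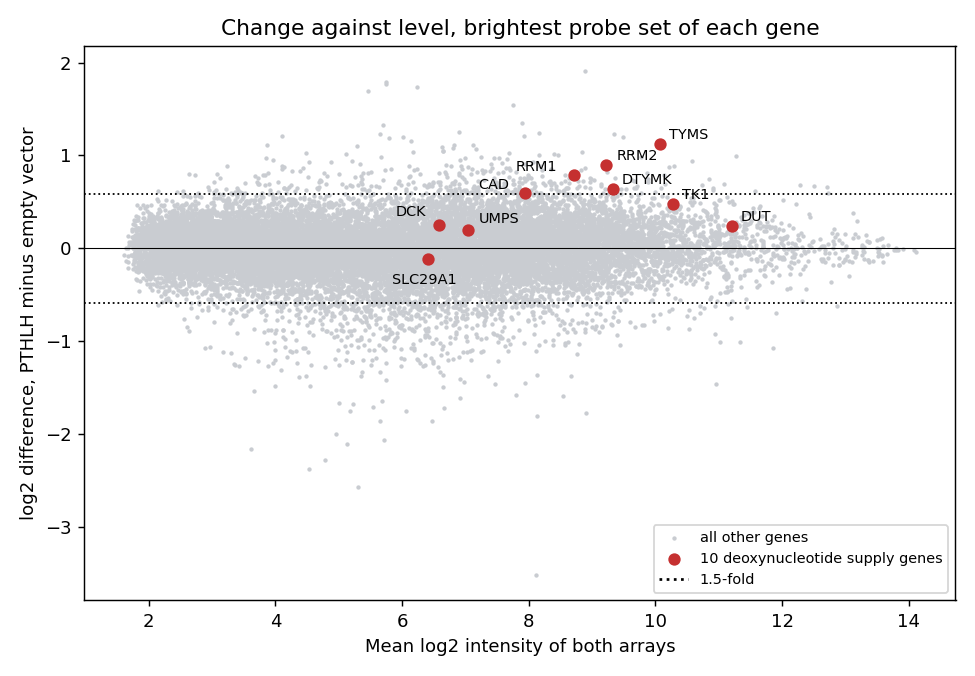
The log2 difference, PTHLH minus empty vector, against the mean log2 intensity of both arrays for the brightest probe set of 19775 genes (grey) and the 10 deoxynucleotide supply genes (red), with 1.5-fold as dotted lines. TYMS stands highest of the 10 at 1.12, RRM2, RRM1, DTYMK and CAD lie above the upper line, and SLC29A1 lies at -0.11.

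Genes around the same pool were read from 5 lists of enzymes and transporters other than the 10. Of 68 measured, 3 were at least 1.5-fold higher and 2 at least 1.5-fold lower, against 1.97% and 3.52% of all genes. The median log2 difference of the 68 was -0.01. Of 16 measured genes of other steps in nucleotide supply, 2 were at least 1.5-fold higher and 0 lower, with a median log2 difference of -0.05. NME1, a kinase that makes nucleoside triphosphates from diphosphates, went from 917 to 1700 (1.85-fold), and CTPS1, which makes CTP from UTP, from 33.1 to 58.2 (1.76-fold), each by its only probe set. NME3 of the same kinase family went from 184 to 125, a log2 difference of -0.57. Of the mitochondrial counterparts of the salvage kinases, TK2 went from 89.8 to 108 (1.20-fold), with 1.01-fold and 1.06-fold by its other probe sets above both medians, and DGUOK, the deoxyguanosine kinase, from 1428 to 1201, a log2 difference of -0.25, though its second probe set had 0.11.

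Thymidylate synthase takes its methyl group from folate. Of 11 measured folate enzymes and carriers, MTHFD1, which interconverts the one-carbon forms of folate in the cytosol, was at least 1.5-fold higher, from 213 to 394 (1.85-fold), and 0 were lower. A dim second probe set of MTHFD1 had a log2 difference of -0.16. The median of the list was -0.05, with ALDH1L1 at -0.45 (-0.03 by its other probe set) and the mitochondrial folate carrier SLC25A32 at -0.30.

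In purine synthesis and salvage, 0 of 15 measured genes passed 1.5-fold in either direction and the median was 0.12. The nearest were PFAS, from 101 to 149 (1.47-fold), and PAICS, from 164 to 236 (1.44-fold), both of the pathway that builds the purine ring. PAICS was 1.52-fold higher by its second probe set. GART, of the same pathway, had a log2 difference of 0.31 by its brightest probe set and -0.40 by another above both medians.

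Enzymes that break nucleotides down or clean the pool had a median below 0. Of 18 measured, 12 had a log2 difference below 0, against 9292 of all 19775 genes, and the median was -0.20. At least 1.5-fold lower was 1 of the 18, which is near the share of 3.52% over all genes, and 0 were higher. The lower one was ADA, which deaminates adenosine and deoxyadenosine. It went from 2930 to 1456 by its brightest probe set and from 909 to 464 by the other, log2 differences of -1.01 and -0.97. Next in size were UPP1, the uridine phosphorylase, at -0.42, and the nucleotidase NT5C2 at 0.42. Of 8 other nucleoside and nucleotide transporters, SLC28A1 was at least 1.5-fold lower, but at 17.5 and 11.0 it lay below both array medians. The other SLC28A1 probe set, also below both medians, went from 12.3 to 14.5, a log2 difference of 0.23. SLC29A2, another equilibrative transporter, went from 115 to 89.5, a log2 difference of -0.36, and its other probe sets lay between -0.17 and 0.17.

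**Figure D4:**
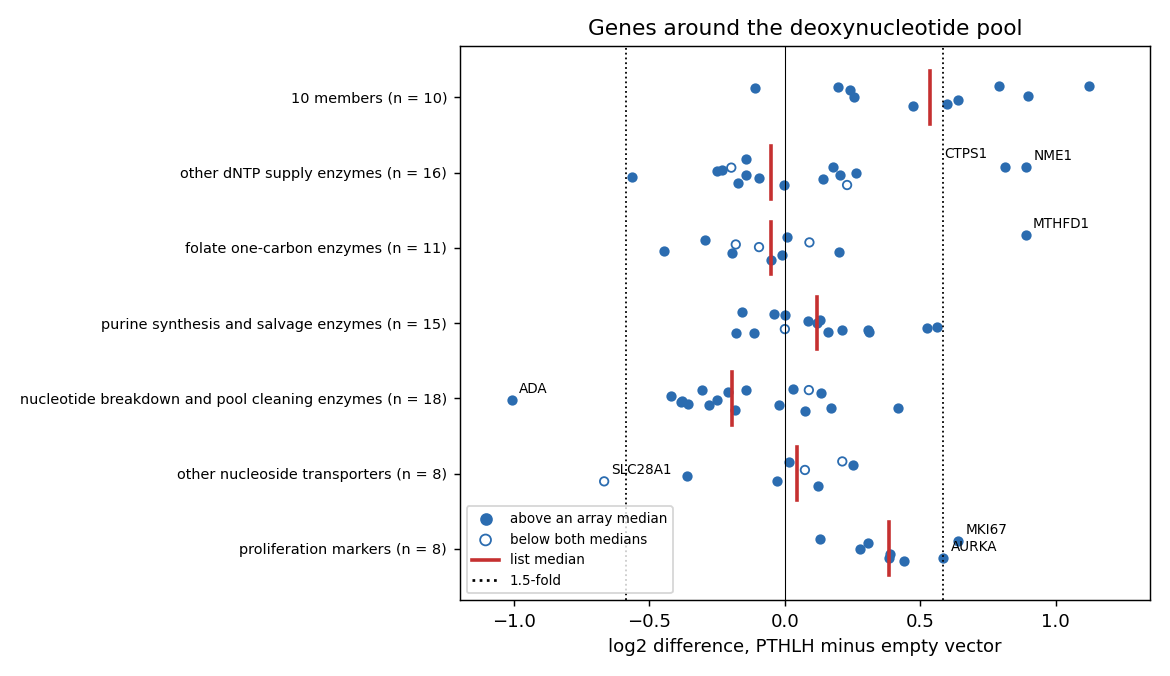
The log2 difference, PTHLH minus empty vector, of each measured gene in 7 lists by its brightest probe set, 1 array per condition, with the list median as a red line and 1.5-fold as dotted lines; open circles lie below both array medians. The median of the 10 genes is 0.54, that of the 8 proliferation markers 0.39 and that of the 18 breakdown enzymes -0.20.

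Markers of dividing cells moved with these results. All 8 proliferation markers had a log2 difference above 0, against 9596 of all 19775 genes. The 8 values lay between 0.13 for TOP2A and 0.64 for MKI67, with a median of 0.39. The summed intensity of the markers was 5853 in empty vector cells and 7729 in PTHLH cells. Of the 8 markers, 2 reached 1.5-fold, MKI67 and AURKA, against 1.97% of all genes. AURKA only just reached that line by its brightest probe set. The part of these markers in the result was not tested. A larger share of cells in S phase and more RNA of these genes per cell cannot be told apart in RNA from whole cultures, nor can PTHLH and any other difference between 2 single cultures. GAPDH and ACTB, as control genes, had log2 differences of 0.03 and 0.30 by their brightest probe sets. Every ACTB probe set was higher in PTHLH cells, from 0.23 to 0.45. The brightest ACTB value thus exceeded those of DUT (0.24), DCK (0.25) and UMPS (0.20).

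The cells were checked against the labels by cell type markers. All 5 squamous keratinocyte markers named here (of 8 listed) lay above the array medians, with a summed intensity of 24202 and 27217. The largest part of that sum was SFN, at 12880 and 13240, followed by KRT5 at 7823 and 10228. The 8 colon markers, listed because of the CX-1 label, summed to 218 and 182, with CDX2 at 27.2 and 26.3. Of these 8, 5 also lay above the array medians, with an intensity of at most 49.1 by the brightest probe set. Of 6 fibroblast markers COL1A1 had 2437 and 1652 by its brightest probe set but at most 102 by its other 4, whereas the other 5 were at most 34.3 on either array, and the 4 leukocyte markers summed to 45.4 and 48.4.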

How the data were processed

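From biotin-labelled RNA on Affymetrix U133 arrays the authors deposited a linear intensity for each probe set. The sources used here do not give the background correction, normalization or probe summary. The array medians were 19.5 and 19.4. Samples were grouped by their characteristics. Intensities were turned to log2 and the empty vector array was subtracted. Probe sets were named through platform annotation (41097 with 1 symbol, 1801 with several and left out, 11777 unnamed here), with symbols updated by gene identifier. The brightest probe set stood for a gene, and a 1.5-fold change, the study's threshold, was counted. The number of arrays limits the precision, and no test was run.

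The 10 genes, the lists and the motifs were chosen with earlier results of these data known. All members were named. From each list the 3 largest absolute differences above an array median were eligible, with RRM2B, TK2, DGUOK, SLC29A2, GAPDH and ACTB. An item of the naming rule is not reported here. Other genes named (TYMSOS, TOP2A, CDX2, SLC28A1 and those under other observations) were chosen after their values were seen. Alternatives were quantile normalization, centring, other probe set rules, a filter and a floor (percentile 40) on dim values, omission of probe sets marked x or s (able to bind more than 1 transcript), and a 2-fold line. Software versions were Python 3.11.15, matplotlib 3.10.9, numpy 2.4.6 and pandas 2.3.3.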

Additional observations from a re-analysis of the deposited data

How the results depend on the processing

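No paired analysis was possible because each condition has 1 array. No member of the 10 was at least 1.5-fold lower under any alternative run, against 2.25% to 4.98% of all genes at 1.5-fold. The count of members at least 1.5-fold higher, 5 as reported, was 4 after quantile normalization, 6 by each gene's most changed probe set, and 5 with centring, without dim probe sets, with a floor, or without x and s probe sets, where RRM1 had none left and DUT took its place. It was 2 (TYMS and RRM2) when the probe sets of a gene were averaged by their median, which takes in dim ones, 3 by the second brightest probe set, an alternative chosen after seeing the data, and 1 (TYMS) at the 2-fold line. The share of all genes higher was 1.89% after quantile normalization, 3.48% by the most changed probe set and 1.97% with centring. Without dim probe sets it was 2.57%, with the floor 1.76%, and without x and s probe sets 1.88%. With the median over probe sets it was 1.25%, by the second brightest 2.17%, and at the 2-fold line 0.182%. The median log2 difference of the members was 0.30 with the median over probe sets and 0.20 by the second brightest, against 0.54. Of 78 values of single members under the alternatives, 8 moved by at least the SD between probe sets and 0 reversed after being called. Only members called as reported could count as reversed. UMPS, not called, changed sign from 0.20 to -0.03 without x and s probe sets. For the pathway lists, 19 of 130 values moved. No alternative moved the median of all genes by over 0.1.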

Other observations

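SAMHD1, which hydrolyses deoxynucleoside triphosphates and so works against the supply enzymes, had 4 probe sets above both array medians, and all 4 were lower in PTHLH cells, with log2 differences between -0.42 and -0.22. None reached 1.5-fold. TYMP, the thymidine phosphorylase, went from 191 to 161 by its brightest probe set and from 40.7 to 20.1 by the other, log2 differences of -0.25 and -1.02. The other TYMP probe set was dim, ending close to the PTHLH array median of 19.4. DPYD, which degrades pyrimidines and fluoropyrimidine drugs, had -0.38 and -0.10 by its probe sets above both medians, and CDA, the cytidine deaminase, had -0.28 by its only one.

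ABCC5, an exporter of nucleotide analogues, had 3 probe sets above both medians, all higher in PTHLH cells, at 1.19-fold, 1.74-fold and 1.36-fold. These genes were chosen after their values were seen, and with 1 array per condition none of the differences has a replicate check.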
